A study of Homo sapiens with 15 samples.

Results

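KRT19, CLDN1, GPRC5A and DDR1 are genes best known from epithelia, and here they were followed in a fibroblast culture. They were taken by gene name from 4 deposited tables of differential expression, which together hold 4872 genes. The genes were chosen by their listing, that is by the authors' fold changes and adjusted p-values against the PD45 control, so the differences from that control are given as descriptions, without a test. The data are RNA sequencing of WI-38, a line of human fetal lung fibroblasts that stops dividing after a limited number of passages, in 15 libraries that form 5 groups of 3. The first group held PD45 cells given lipo3000, DMSO and the SRC siRNA named siSRC2 in the sample titles. The second received siSRC4 in its place, and the treatment label of both is the same. In the third, PD45 cells carried the label NC, read as a control siRNA, and were given GW8510, with lipo3000 and no DMSO in the labels. GW8510 is a kinase inhibitor known to act on cyclin-dependent kinases. The PD45 control had NC, lipo3000 and DMSO, and the PD30 cells had lipo3000 and DMSO without NC. PD is read as population doublings, the labels speak of generations, and the PD45 cells are described as senescent. Passage cannot be told apart from NC in the comparison with PD30, nor GW8510 from the absence of DMSO.

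Keratins form the intermediate filaments of epithelial cells, where fibroblasts mainly use vimentin. Claudins build the strands of tight junctions that seal epithelial sheets. GPRC5A is an orphan seven-pass membrane receptor induced by retinoic acid and abundant in lung epithelium, and DDR1 is a receptor tyrosine kinase that binds collagen and is found mostly in epithelia, while its relative DDR2 serves mesenchymal cells. In epithelial cells such genes are known targets of the repressors ZEB1, ZEB2, SNAI1 and SNAI2, which bind the E-box sequence CAGGTG.

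In GENCODE v29 (GRCh38), matched by the Ensembl identifiers of the tables, KRT19 (ENSG00000171345) lies at chr17:41523617-41528308 on the minus strand and CLDN1 (ENSG00000163347) at chr3:190305701-190322475 on the minus strand. GPRC5A (ENSG00000013588) lies at chr12:12890782-12917937 and DDR1 (ENSG00000204580) at chr6:30876421-30900156, both on the plus strand. KRT19 has processed pseudogenes, and the sources used here do not say how reads shared with them were counted.

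The start-site windows below, each reaching from 250 bases before to 50 bases after a transcript start, are from RefSeq (GRCh38.p14) and belong to CLDN1 and DDR1. CLDN1 has 1 window, at chr3:190322397-190322696 on the minus strand, and DDR1 has 8. Of the 4 genes only CLDN1 and DDR1 had windows in the source used. DDR1 was higher with siSRC4, where ZEB1 and ZEB2 were lower, and lower with siSRC2, where neither was listed. The part of the E-box in these levels was not tested. Capitals mark the GC box GGGCGG, on either strand, in CLDN1. In DDR1 they mark CAGGTG or its complement CACCTG. The DDR1 windows shown are at chr6:30882684-30882983, chr6:30883658-30883957 and chr6:30885034-30885333, all on the plus strand.
CLDN1: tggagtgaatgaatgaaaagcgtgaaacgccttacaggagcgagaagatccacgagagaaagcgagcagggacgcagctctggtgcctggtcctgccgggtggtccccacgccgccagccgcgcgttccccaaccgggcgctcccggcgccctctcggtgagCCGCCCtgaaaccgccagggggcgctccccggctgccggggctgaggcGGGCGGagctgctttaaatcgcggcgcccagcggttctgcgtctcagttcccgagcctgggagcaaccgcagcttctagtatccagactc
DDR1: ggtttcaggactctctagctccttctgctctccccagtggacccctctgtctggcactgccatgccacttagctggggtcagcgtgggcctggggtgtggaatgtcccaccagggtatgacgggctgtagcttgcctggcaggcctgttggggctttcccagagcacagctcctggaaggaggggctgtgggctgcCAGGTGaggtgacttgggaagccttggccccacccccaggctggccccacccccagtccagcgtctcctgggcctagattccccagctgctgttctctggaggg
DDR1: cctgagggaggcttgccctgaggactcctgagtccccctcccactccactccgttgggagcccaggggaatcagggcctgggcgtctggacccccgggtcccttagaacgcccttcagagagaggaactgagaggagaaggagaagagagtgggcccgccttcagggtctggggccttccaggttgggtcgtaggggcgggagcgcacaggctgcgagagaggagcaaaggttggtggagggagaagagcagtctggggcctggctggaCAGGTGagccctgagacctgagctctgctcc
DDR1: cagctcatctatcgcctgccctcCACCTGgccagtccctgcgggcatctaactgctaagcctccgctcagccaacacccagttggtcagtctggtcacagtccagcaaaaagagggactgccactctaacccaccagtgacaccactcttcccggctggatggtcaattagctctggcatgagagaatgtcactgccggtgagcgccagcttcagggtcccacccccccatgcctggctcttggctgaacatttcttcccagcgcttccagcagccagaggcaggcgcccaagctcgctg
The E-box was found in 4 of the 8 DDR1 windows, 2 of which overlap and share their match, and not in the CLDN1 window, against 20.6% of all 35116 windows. The CLDN1 window held 2 GC boxes, which occur in 45.0% of windows. Some DDR1 windows held GC boxes too, among them the shown window at chr6:30883658-30883957, where the box is not marked. The AP-1 motif TGANTCA was found in 1 further DDR1 window and not in that of CLDN1, against 7.71% of windows, and the motif AACCGGTT of Grainyhead-like factors in none of these windows, against 0.134%. A match describes the letters and not binding.

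**Figure D1:**
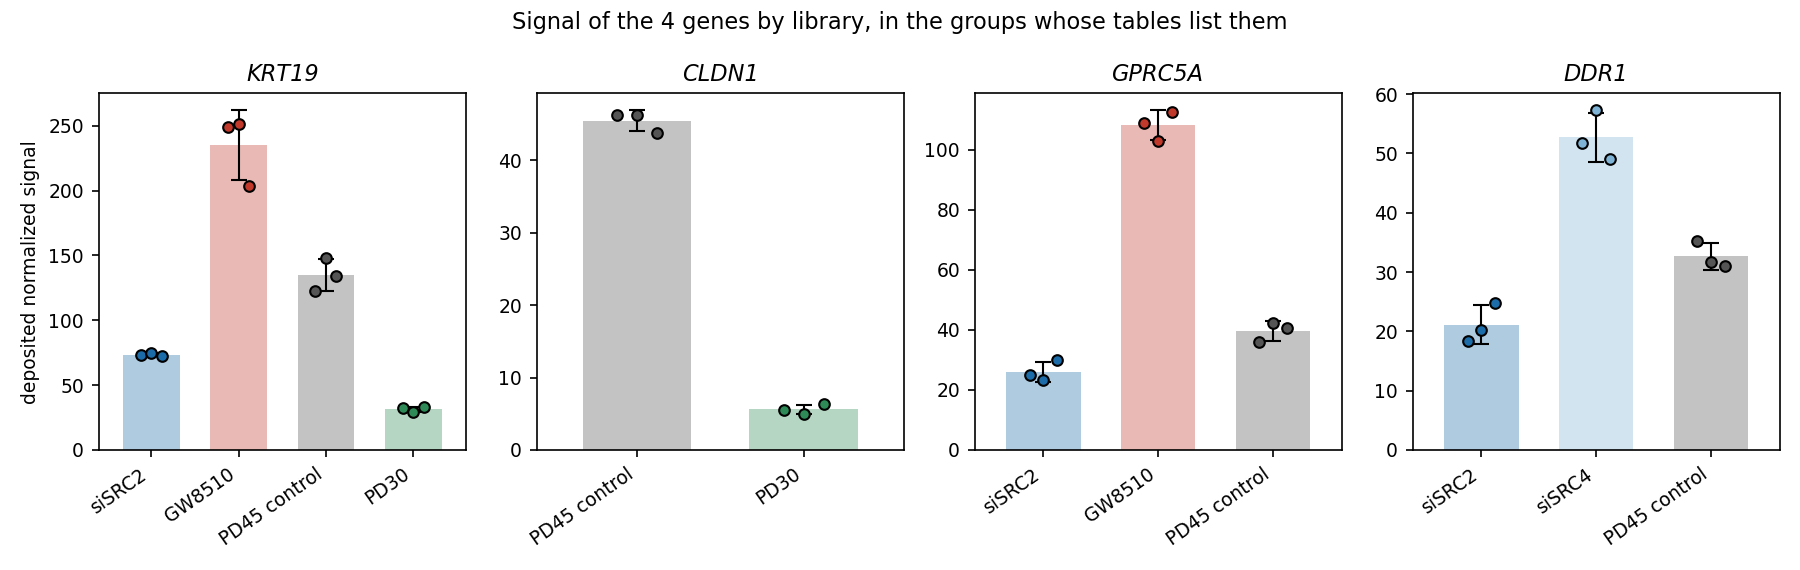
Deposited normalized signal (y axis, from 0) of KRT19, CLDN1, GPRC5A and DDR1 in each library (points), with the group mean (bar) and SD (error bar, n = 3), for the groups whose tables list the gene and the PD45 control. KRT19 reached 251 with GW8510 and 32.8 at PD30, and no groups of the same gene overlapped.

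Of 16 possible listings of the 4 genes in the 4 tables, 8 were found. With siSRC2, 3 of the 4 were listed, all lower, where 2.64% of the 12549 genes tested by the authors were listed, 1.38% as higher and 1.26% as lower. With siSRC4 only DDR1 was listed, as higher, where 8.77% of 14598 genes were listed, 3.91% as higher and 4.86% as lower. With GW8510, KRT19 and GPRC5A were listed as higher, against 11.8% of 15574 genes listed, 4.59% as higher and 7.26% as lower. KRT19 and CLDN1 were listed as higher at PD45 than at PD30, against 15.3% of 18575 genes listed, 7.07% as higher and 8.24% as lower. In all 8 listings the libraries of both groups were fully separate, as they were for 90.6% of listed genes with siSRC2, 88.8% with siSRC4, 90.6% with GW8510 and 93.6% at PD45 against PD30. These shares are the background of the listing, which chose the genes, and nothing is read from them. The listing limits are a fold change of 1.5 and an adjusted p of 0.05, and values of a gene in a comparison that does not list it were not used here. The knockdown target SRC had signals of 11.6, 10.6 and 11.6 with siSRC2 and 9.51, 11.1 and 11.8 with siSRC4, against 19.0, 20.5 and 19.9 in the PD45 control, or 57% and 54.6% of it.

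KRT19 encodes the smallest type I keratin, a filament protein of simple epithelia, and was the member listed most often. Its signal was 73.3, 75.1 and 72.3 in the siSRC2 libraries. With GW8510 it was 249, 251 and 204. In the PD45 control it was 123, 148 and 134, and at PD30 32.5, 29.1 and 32.8. The 4 groups were fully separate, with GW8510 highest, then the PD45 control, then siSRC2, and PD30 lowest. The third GW8510 library lay below its other 2, yet 55.7 signal units above the highest control library.

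Group means of KRT19 were 235 ± 27.0 with GW8510 and 73.6 ± 1.40 with siSRC2, against 135 ± 12.7 in the PD45 control (SD, n = 3 each). The ratio of means was 1.74 for GW8510 and 0.545 for siSRC2. PD45 control cells had 4.29 times the mean of PD30 cells, 135 ± 12.7 against 31.5 ± 2.03. The authors' deposited table gives a log2 fold change of 0.93 for GW8510 (adjusted p = 1.06e-16), -0.92 for siSRC2 (2.35e-22) and, for PD30 over the PD45 control, -2.10 (2.21e-97). By size of change in the authors' deposited table, KRT19 stood at rank 243 of the 1314 genes higher at PD45, at rank 249 of 715 higher with GW8510, and at rank 39 of 158 lower with siSRC2. Replicates were closest with siSRC2, where the coefficient of variation was 1.91%, beside a median of 10.4% over 310 listed genes in those libraries.

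Both the siSRC2 cells at PD45 and the PD30 cells were below the PD45 control. Listing on the same side did not by itself fix the direction between them, so this contrast of KRT19 was fitted. The authors' folds against the shared control, 0.234 for PD30 and 0.529 for siSRC2, already gave the order, however. The same libraries entered the listing of KRT19, so the p-value of the contrast is not independent of that choice. It is given as a description of size against spread. KRT19 was 2.34-fold higher with siSRC2 than at PD30, 73.6 ± 1.40 against 31.5 ± 2.03. On log2(signal + 1) the difference was 1.20 with a standard error of 0.0890, and limma gave an adjusted p of 2.01e-07 over 143 genes listed in both tables with a mean signal of at least 1. Of those genes 62.9% passed, so a difference of this kind was usual among them. A two-sided exact permutation test over the 6 libraries gave p = 0.1, the smallest that 3 against 3 allows, and all 3 siSRC2 libraries were above all 3 PD30 libraries. The fit is conditional on listing in both tables, and passage and the SRC siRNA differ together between these groups.

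Where 2 treatments were listed on opposite sides of the PD45 control, the listing itself fixes the direction between them, and only the sizes are given. KRT19 with GW8510 stood at 3.19 times its siSRC2 level and at 7.46 times its PD30 level. Thus KRT19, 4.29-fold higher at PD45 than at PD30, was further from the PD30 level with GW8510, and nearer to it with siSRC2. No label tells whether replicate libraries were grown as separate cultures, so their spread may be technical. In bulk RNA, more cells with a transcript and more transcript per cell cannot be told apart.

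**Figure D2:**
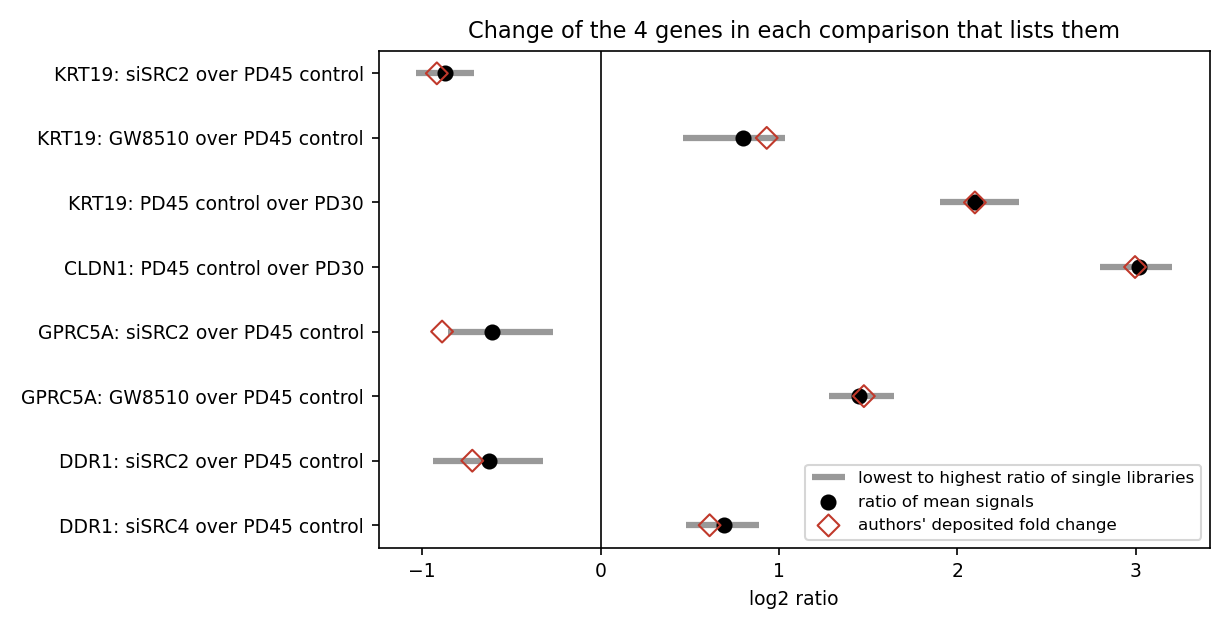
Log2 ratio (x axis, first group over second) of the 4 genes in each comparison that lists them (rows): ratio of mean signals (black points), the range of ratios between single libraries (grey bars) and the authors' deposited fold change (red diamonds). CLDN1 at PD45 has the largest value, 3.02, and the authors' value for GPRC5A with siSRC2, -0.89, lies outside the range of single-library ratios.

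CLDN1 encodes claudin 1, a strand-forming protein of tight junctions in skin and other epithelia. Its signal was 46.3, 46.2 and 43.8 in the PD45 control, against 5.49, 5.03 and 6.30 at PD30. The groups were separated by 37.5 signal units, with a narrow spread in each. The means were 45.4 ± 1.44 at PD45 and 5.61 ± 0.643 at PD30 (SD, n = 3 each), a ratio of 8.10, and single libraries gave ratios from 6.95 to 9.20. In the authors' deposited table the log2 fold change of PD30 over the PD45 control was -3.0 (adjusted p = 1.88e-222). CLDN1 had there the rank 2 of 2845 listed genes by p-value, but the rank 143 among the 1314 genes higher at PD45 by size of change. CLDN1 was in neither siRNA table, nor in that of GW8510.

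GPRC5A moved in opposite directions with GW8510 and with siSRC2. With GW8510 its signal was 109, 103 and 113, and with siSRC2 24.8, 23.4 and 29.9, against 36.0, 42.4 and 40.5 in the PD45 control. No groups overlapped, and the gap above the control was far wider than the gap below it, 60.5 against 6.14 signal units. The mean was 108 ± 4.96 with GW8510 and 26.04 ± 3.41 with siSRC2, against 39.6 ± 3.26 in the control (SD, n = 3 each), ratios of 2.73 and 0.657. The GW8510 level was 4.15 times that with siSRC2. In the authors' deposited table, GPRC5A was at rank 10 of 1845 genes by p-value with GW8510 (log2 fold change 1.48, adjusted p = 3.79e-55).

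With siSRC2 the support for GPRC5A was weaker. The authors' deposited table puts it at rank 264 of 331 genes by p-value (log2 fold change -0.89, adjusted p = 0.00633), while the log2 ratio of mean signals was -0.61. The gap of -0.28 between both values compares with a median of -0.05 over the table, and 8.76% of listed genes were further from that median. The fold of GPRC5A with siSRC2 thus depends on whether the signals or the authors' fit are used. GPRC5B, a relative of GPRC5A, was higher with GW8510 as well (9.37 ± 0.685 against 4.47 ± 0.623 in the PD45 control), and lower at PD45 than at PD30 (4.47 ± 0.623 against 8.05 ± 1.12). GPRC5C, GPRC5D and DDR2 were in no table.

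DDR1, the collagen-binding receptor kinase, was the 1 member listed for both SRC siRNAs, and in opposite directions. Its signal was 18.4, 20.3 and 24.8 with siSRC2. With siSRC4 it was 51.8, 57.2 and 49.1, against 35.3, 31.7 and 31.0 in the PD45 control. All siSRC2 libraries were below and all siSRC4 libraries above every control library, although SRC itself was lower with both. The means were 21.1 ± 3.26 and 52.7 ± 4.16, against 32.6 ± 2.30 in the control (SD, n = 3 each).

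The ratios to the control were 0.648 for siSRC2 and 1.61 for siSRC4, and the siSRC2 level was 0.401 of the siSRC4 level. The authors' deposited table gives log2 fold changes of -0.72 for siSRC2 (adjusted p = 8.26e-14) and 0.61 for siSRC4 (3.28e-08). The fold of 1.53 for siSRC4 is the value of the 4 genes closest to the listing limit of 1.5. Replicates with siSRC2 spread more widely for DDR1 than for KRT19, with a coefficient of variation of 15.4% and the third library highest. Of 104 genes listed for both siRNAs, 54 were higher and 32 lower with both. DDR1 was among 7 that were lower with siSRC2 and higher with siSRC4, and 11 went the other way. The siRNA comparisons share their control libraries.

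The median base composition of listed genes by direction is given here beside the members. It differed most with siSRC4 and GW8510, and least at PD45 against PD30. The longest protein-coding transcript in GENCODE v29 has 61.8% G and C for KRT19, 61.6% for DDR1, 50.4% for GPRC5A and 41.5% for CLDN1. Genes listed as higher with GW8510 had a median of 56.3% and those lower 41.6%, and with siSRC4 the medians were 56.4% and 41.1%. With siSRC2 genes higher had 47.7% and those lower 53.3%, and at PD45 against PD30 those higher had 48.1% and those lower 49.4%. The part of composition in the members' changes was not tested.

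The genes nearest to each member were found by the root-mean-square difference of log2(signal + 1), centred on the PD45 control, over the libraries of the tables that list the member. For KRT19, over 12 libraries and 58 genes, they were CPA4, a secreted carboxypeptidase (difference 0.125), SERPINB7, a serine protease inhibitor of skin (0.153), and the pseudogene CEACAMP10 (0.246). CPA4 had a mean signal of 293 ± 11.8 with siSRC2 and 831 ± 52.4 with GW8510, against 480 ± 62.2 in the PD45 control, and 114 ± 16.4 at PD30. SERPINB7 stood at 24.0 ± 2.17 with siSRC2 and 70.8 ± 14.2 with GW8510, against 43.1 ± 1.46 in the PD45 control, and 8.23 ± 0.490 at PD30. Both keep the order of KRT19, with GW8510 highest and PD30 lowest, which follows from their choice by nearness over these libraries. CEACAMP10 has near-identical relatives, and its level is uncertain.

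**Figure D3:**
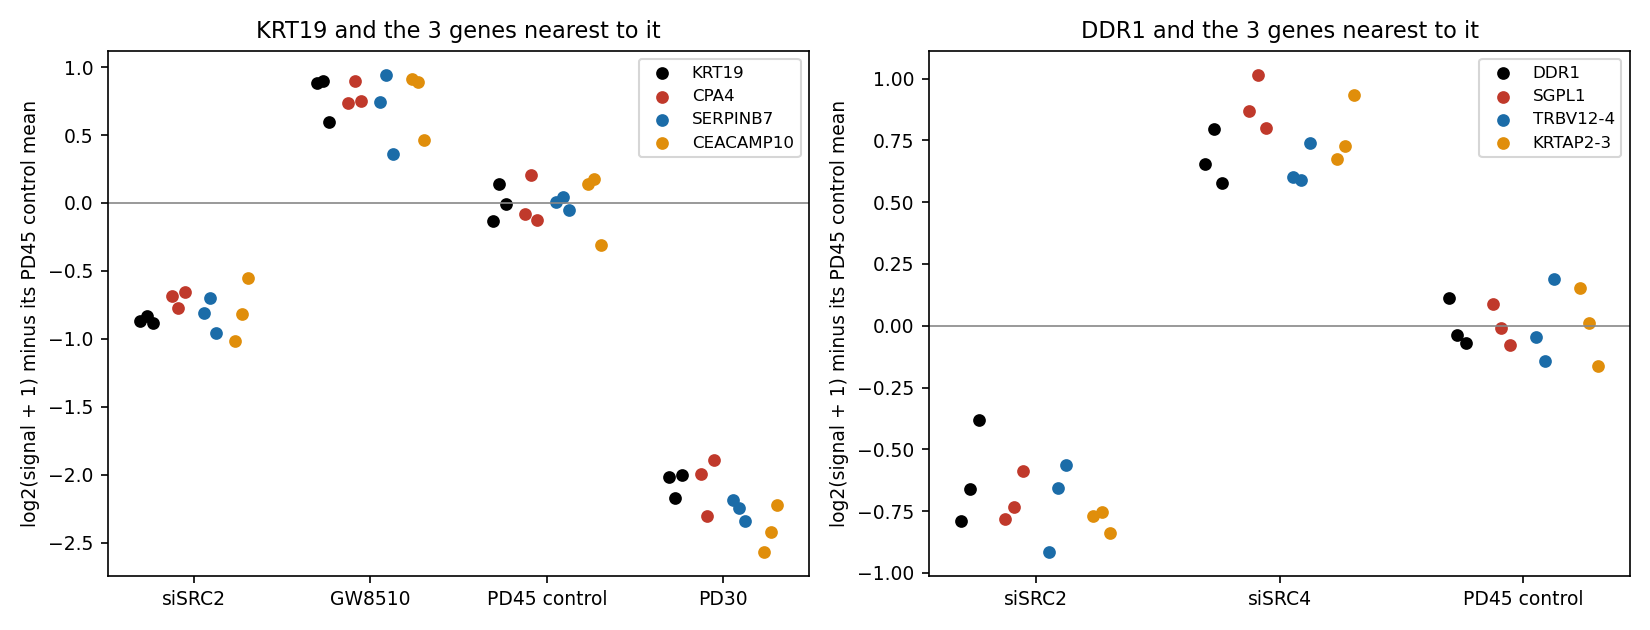
Log2(signal + 1) minus its mean in the PD45 control (y axis) in each library (points) for KRT19 and DDR1 (black) and the 3 genes nearest to each (colours), by group (x axis). CPA4 differed from KRT19 by a root mean square of 0.125 and SGPL1 from DDR1 by 0.147.

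For DDR1, over 9 libraries and 97 genes, the nearest was SGPL1, which encodes the lyase that degrades sphingosine 1-phosphate (0.147). SGPL1 had 4.18 ± 0.371 with siSRC2 and 14.7 ± 1.22 with siSRC4, against 7.43 ± 0.483 in the PD45 control. The next were TRBV12-4, a T-cell receptor segment (0.158), and KRTAP2-3, a hair keratin-associated protein (0.201), both of families with near-identical members, so that their signals are uncertain. For GPRC5A, over 9 libraries and 97 genes, they were NOG, which encodes the BMP antagonist noggin (0.293), LINC00452 (0.376) and the transcription factor gene KLF2 (0.377). NOG had 2.85 ± 0.135 with siSRC2 and 9.52 ± 0.803 with GW8510, against 4.26 ± 0.587 in the control. CLDN1 was compared over only 6 libraries in 2 groups, where nearness says little beyond the size of the difference on log2(signal + 1). Its nearest of 2291 genes were HCLS1 (0.0770), SRGN (0.116) and GDF6 (0.158). HCLS1 had 7.75 ± 0.272 in the PD45 control and 0.273 ± 0.0208 at PD30, a larger ratio of signals than that of CLDN1. Its nearness therefore rests on the 1 added to a low PD30 signal.

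Around the 4 genes, 6 lists of other epithelial genes with 117 symbols were examined. The share of them listed was 0.855% with siSRC2, 7.69% with siSRC4, 9.40% with GW8510 and 21.4% at PD45 against PD30. They are shares of all 117 symbols, tested by the authors or not, so they cannot be set against the shares of tested genes given above. At PD45 against PD30, 25 of the 117 were listed, 17 higher and 8 lower, with a median authors' log2 fold change of 1.05. Over all listed genes it was -0.64, and 46.2% of them were higher at PD45. With a fold of at least 2 the value over all listed genes was -1.14, with 40.5% higher. The fold limit keeps listed genes away from 0, so such a median mainly shows which direction held more genes. Its distance from the median of the lists is not a difference in size of change, here or with the treated cells. Keratins were listed in 1 direction. All 5 of 18 that were listed were higher at PD45, among them KRT8, a type II keratin of simple epithelia (14.5 ± 1.17 against 7.48 ± 0.146), and KRT17, a keratin of stressed and basal epithelia (9.81 ± 2.66 against 1.79 ± 0.525). KRT15 and KRT80 were 2.21-fold and 1.82-fold higher.

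The claudin, junction and adhesion lists together held genes of both directions. Of 21 adhesion and desmosome genes 3 were higher at PD45 and 1 lower. With a mean signal of at least 1, 2 were higher and 0 lower, as the lower gene PPL had 0.170 against 0.703 at PD30. The desmosomal plaque gene DSP stood at 9.95 ± 1.62 against 3.18 ± 0.150 at PD30 and the desmosomal cadherin DSG2 at 6.71 ± 0.426 against 3.70 ± 0.176. The 1 other claudin listed, CLDN23, was lower at PD45 (2.40 ± 0.212 against 6.06 ± 0.926), opposite to CLDN1. Of 19 tight junction partners 2 were higher and 3 lower, or 1 and 2 with a mean signal of at least 1. The libraries of F11R, which encodes a junctional adhesion molecule, overlapped between the groups (4.41 ± 1.13 against 2.41 ± 1.72). Of 22 surface and secreted proteins 4 were higher and 2 lower, or 3 and 1 with that signal limit. The ephrin receptor EPHA2 had 47.4 ± 3.95 against 22.5 ± 2.46 at PD30, while the mucin MUC1 was lower (1.80 ± 0.340 against 5.48 ± 0.676). SLPI, a protease inhibitor of mucosal surfaces, stood at 1.91 ± 0.611 at PD45 and was listed at 0 in every PD30 library. Of 18 regulators 3 were higher and 1 lower, or 2 and 1 with that signal limit. EHF, an epithelial ETS factor, had 1.59 ± 0.576 against 0.0867 ± 0.0451.

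**Figure D4:**
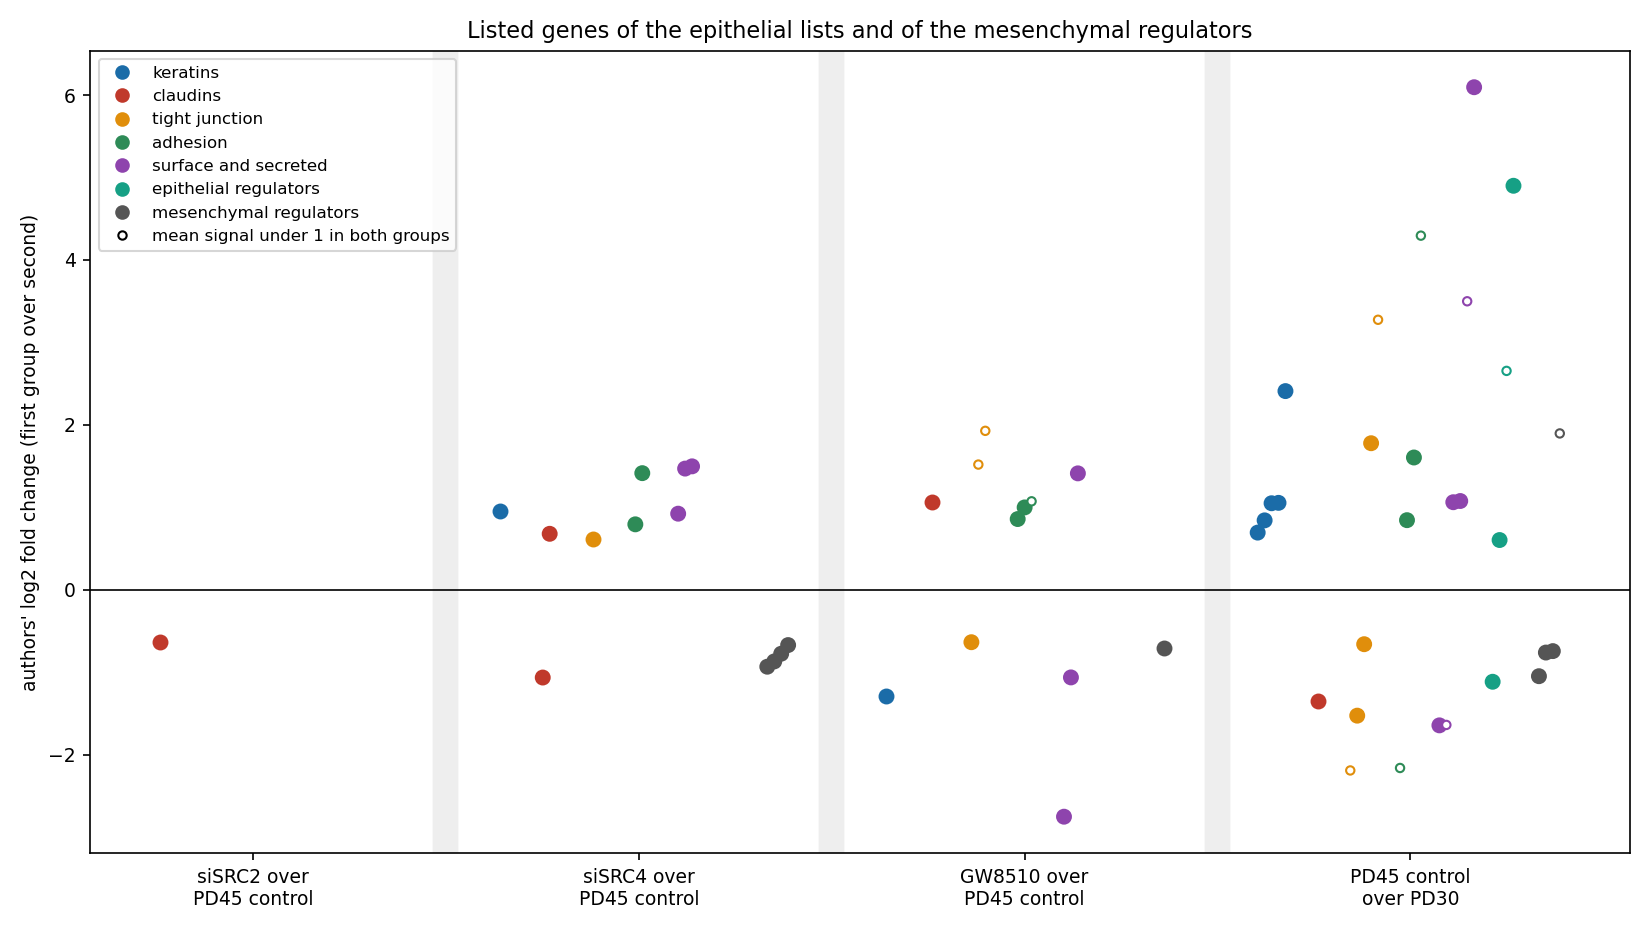
Authors' log2 fold change (y axis, first group over second) of the genes of the 6 epithelial lists and of the mesenchymal regulators (colours) that each table lists (x axis, 4 comparisons). Small open points are genes with a mean signal under 1 in both groups. All 5 keratins listed at PD45 over PD30 are above 0, and the 4 mesenchymal regulators listed with siSRC4 are below 0.

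The treated cells gave other members of the lists. With siSRC2 only CLDN4 of the 117 genes was listed, and it was lower (3.28 ± 0.476 against 4.90 ± 0.547 in the PD45 control). With siSRC4, 9 were listed, 8 higher and 1 lower, with a median authors' log2 fold change of 0.92, beside -0.61 over all genes of that table, of which 44.6% were higher. The sign of that second median depends on the fold limit. With a fold of at least 2 it was 1.01, with 50.6% of genes higher, and the lists had 3 higher and 1 lower with a median of 1.44. SPINT1, 1 of the 3, had overlapping libraries (1.02 ± 0.701 against 0.613 ± 0.140). Its ratio of mean signals was 1.66, beside an authors' fold of 2.82. The 8 higher genes at the listing limit included the laminin chain LAMB3 (6.11 ± 1.15 against 2.33 ± 0.233), the integrin chain ITGA6 (32.5 ± 8.14 against 18.2 ± 4.13) and SPINT2, an inhibitor of membrane serine proteases (4.41 ± 1.74 against 1.02 ± 0.199). KRT17 was also higher (19.0 ± 4.32 against 9.81 ± 2.66), and the claudin CLDN11 lower (28.4 ± 9.37 against 58.8 ± 5.38). With GW8510, 11 were listed, 7 higher and 4 lower by the authors' fold change, with a median of 1.0, beside -0.65 over all genes of the table, of which 38.8% were higher. Leaving out genes whose mean signal was under 1 in both groups, 4 were higher and 4 lower, with a median of 0.11. That median falls between both directions, and no listed gene had so small a change. The tight junction gene CGN, 1 of the 7, had a lower mean signal with GW8510 (0.540 ± 0.0557 against 0.697 ± 0.567), so its direction depends on the estimate. CLDN11 was higher with GW8510 (113 ± 7.71 against 58.8 ± 5.38) and KRT17 lower (3.60 ± 0.773 against 9.81 ± 2.66), each opposite to siSRC4. DSG2 was higher (11.2 ± 0.716 against 6.71 ± 0.426), and AREG, a ligand of the EGF receptor, lower (1.18 ± 0.281 against 8.90 ± 3.33).

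Of 11 regulators and markers of the mesenchymal state, 4 were listed with siSRC4, all lower, and the other 7 were not listed. Of all genes tested, 4.86% were listed as lower. Whether all 11 were tested is not known, so the count cannot be set against that share. The median authors' log2 fold change of the 4 was -0.82. The -0.61 of all genes listed for siSRC4 mixes higher and lower genes, so it does not give the size of a usual decrease. With a fold of at least 2 none of the 11 was left. ZEB1 stood at 15.3 ± 4.51 against 26.4 ± 1.44 in the PD45 control, and ZEB2 at 16.03 ± 1.76 against 23.7 ± 2.37. TWIST1 had 10.9 ± 1.01 against 16.9 ± 2.97, and TCF4 2.87 ± 0.207 against 5.91 ± 0.496. KRT19, CLDN1 and GPRC5A were not listed with siSRC4. With GW8510, where KRT19 and GPRC5A were higher, ZEB1 was also lower (15.3 ± 2.16 against 26.4 ± 1.44), and ZEB2 was not listed. At PD45 against PD30, where KRT19 and CLDN1 were higher, neither ZEB1 nor ZEB2 was listed. In that comparison SNAI2 had 24.7 ± 3.76 against 40.6 ± 2.01, and TWIST2 19.9 ± 0.890 against 41.3 ± 2.38. VIM, the filament gene of mesenchymal cells, stood at 3225 ± 104 at PD45 and 5407 ± 219 at PD30, and SNAI3 was higher at PD45 at a mean signal of 0.577. None of the 11 was listed with siSRC2. These genes share libraries with the members, and their part in the members' levels was not tested.

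Markers of the cell types were read from the same tables. Of all genes tested, 1.38% were listed as higher and 1.26% as lower with siSRC2, and 3.91% and 4.86% with siSRC4. These shares were 4.59% and 7.26% with GW8510, and 7.07% and 8.24% at PD45 against PD30. Counts of so few markers are not read as results about a cell type. Of 18 fibroblast markers 4 were listed with siSRC2, all higher, with summed signals of 1458 to 1705 against 861 to 965 in the PD45 control. With siSRC4 the collagen gene COL5A1 was higher (156 ± 19.1 against 104 ± 5.96) and POSTN lower (2.41 ± 0.765 against 5.46 ± 1.24), with sums of 138 to 174 against 102 to 117. With GW8510, 2 were higher and 3 lower. COL3A1 (202 ± 29.7 against 115 ± 6.82) and TCF21 (169 ± 18.4 against 91.1 ± 5.19) were higher, and fibronectin, FN1, was lower (1325 ± 94.6 against 3530 ± 822) and made up most of the sums of 1585 to 1841 against 2847 to 4366. At PD45 against PD30, 2 were higher and 5 lower. S100A4 was higher (448 ± 27.3 against 94.2 ± 10.8), and COL6A3 was lower (591 ± 41.4 against 1424 ± 138) and carried much of the sums of 1263 to 1298 against 1965 to 2274. The epithelial markers CDH1 and EPCAM were in no table, so the members cannot be set beside them, and the label of epithelial-type genes rests on what the genes are known for. Of 9 endothelial markers 2 were listed at PD45 against PD30, with sums of 6.38 to 8.53 against 29.3 to 31.9, and 1, TEK, with siSRC2 (11.6 to 14.1 against 6.22 to 8.53). Of 6 mesothelial markers only CALB2 was listed, in 3 tables. It was higher at PD45 than at PD30 (9.25 ± 1.75 against 4.56 ± 0.275). It was lower with siSRC2 (5.49 ± 0.732) and with GW8510 (3.89 ± 0.458) than in the PD45 control (9.25 ± 1.75). Of 7 smooth muscle markers 3 were higher at PD45 than at PD30 (421 to 468 against 218 to 271), 2 were lower with GW8510 (31.1 to 33.0 against 55.2 to 61.4) and 1 with siSRC4 (4.22 to 8.63 against 7.58 to 11.1). Of 9 immune markers only CD68 was listed, lower with GW8510 (28.1 ± 2.84 against 48.0 ± 5.81). The part of these changes in the members' levels was not tested.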

How the data were processed

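The tools listed in the submitters' processing notes are HISAT2, CASAVA, RSEM, StringTie, edgeR and DESeq2, with no role given, and the build is the mouse build GRCm38, while the identifiers are human, so no coordinates come from the files. Per the file headers, the authors give for each gene a fold ratio, a log2 fold change, a p-value and adjusted p-value, and a normalized signal per library whose kind (TPM or FPKM) is not stated. Read depth is therefore unknown, and no interval or floor is given. Each deposited table is limited to a fold of at least 1.5 and an adjusted p under 0.05. Under Benjamini-Hochberg adjustment, the adjusted p divided by the p of a table's leading gene is its number of genes tested, and it lay within 0.001 of a whole number in all 4 tables. Control values were identical in all tables (largest difference 0). Tables were matched to groups by their library columns, which name siSRC4 where the mean column reads siSRC2, and siSRC2 where it reads siSRC.

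Means, SDs and ratios were computed with Python 3.11.15, pandas 2.3.3 and numpy 2.4.6, and figures with matplotlib 3.10.9. The contrasts between groups other than the PD45 control were fitted with R 4.3.3 and limma 3.58.1, with a trend of variance on mean, to log2(signal + 1), which understates changes of low genes, over genes in both tables with a mean signal of at least 1, adjusted by Benjamini-Hochberg, and the script was tested on simulated data. Of 5 such contrasts fitted, a p is given only for KRT19 with siSRC2 against PD30, because in the other 4 the listing fixes the direction. The members and the 13 gene lists, whose 181 symbols all matched, were chosen with earlier results of these data known. Genes named are the members, the 3 nearest to each, and up to 4 genes per list and table with the largest authors' fold change and a mean signal of at least 1. CDH1, COL3A1 with GW8510, EPCAM, SNAI3, CGN, GPRC5C, GPRC5D and DDR2 were named outside that rule, after their listing was seen. Alternatives changed the replicate summary, pseudocount, filters, fold threshold, nearness measure and libraries. For siSRC2 against the PD45 control, deviations of same-numbered libraries correlated at 0.114, 0.109 and 0.252 over 297 genes, so the numbers were taken as pairing there; the other comparisons had at least 1 pair under 0.1.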

Additional observations from a re-analysis of the deposited data

Results flagged for a closer look

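DDR1 is singled out because SRC siRNAs moved it in opposite directions. Every siSRC2 library (18.4 to 24.8) was below, and every siSRC4 library (49.1 to 57.2) above, all PD45 control libraries (31.0 to 35.3). The siSRC2 mean was 0.401 of the siSRC4 mean. Because the tables listed DDR1 on both sides of a shared control, the difference between the siRNAs was not tested.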

How the results depend on the processing

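All 8 ratios of the members to their comparison group kept their direction under the median, the geometric mean, a pseudocount, the authors' fold change and the loss of any 1 library. Values that moved by more than the replicate SD were CLDN1 at PD45 over PD30, 7.03 with a pseudocount of 1 against 8.10, and GPRC5A with siSRC2, 0.540 by the authors' fold change against 0.657. Without single libraries, ratios with siSRC2 ran from 0.522 to 0.573 for KRT19, from 0.608 to 0.690 for GPRC5A and from 0.592 to 0.690 for DDR1, and CLDN1 from 7.71 to 8.64. The difference of KRT19 between siSRC2 and PD30 ran from 1.15 to 1.23 without single libraries and passed each time, as it did with the other pseudocount, without the signal minimum and without the trend. With the replicate block the paired ratios for siSRC2 were 0.547 (KRT19), 0.655 (GPRC5A) and 0.644 (DDR1), and the KRT19 difference between siSRC2 and PD30 had an adjusted p of 8.23e-05 (limma), so the block changed no call. Among the 117 epithelial genes, a fold of at least 2 left 3 higher with siSRC4 and 0 lower with siSRC2. A mean signal of at least 1 left 4 higher and 4 lower with GW8510. The median log2 fold change of 0.11 there falls between both directions and is the change of no gene. At PD45 against PD30 that signal limit left 13 higher and 5 lower, and a fold of at least 2 left 13 and 7. Nearness by Pearson correlation kept 1 of the 3 genes for CLDN1 and for GPRC5A. Depth is unknown, so signals under 1 carry an unknown counting error.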
